A study of Mus musculus with 2 samples.

Results

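The core circadian clock was described in the left cerebral cortex from 10 genes, Clock, Arntl, Per1, Per2, Per3, Cry1, Cry2, Nr1d1, Nr1d2 and Dbp, taken by symbol from the 55536 annotated genes of the deposited tables. Total RNA was sequenced from the left cortex of 2 female first-generation hybrid mice, labelled B6CASTF1/J and aged 25 days, with 300 ng of RNA and ERCC spike-ins (synthetic control RNAs) per library. The libraries, biological replicates 1 and 2, form 1 group with no treatment, mutation or control. Their labels name different animal numbers but cite the same donor identifier, so the spread between them covers preparation only if the tissue came from the same animal. The labels give no time of day or lighting schedule for the dissections, and with 1 library per replicate no p-value is given.

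The mammalian clock is a transcriptional feedback loop that runs in most cells. CLOCK and BMAL1, the product of Arntl, bind E-box sequences as a dimer and activate the Per, Cry, Nr1d1, Nr1d2 and Dbp genes. PER and CRY proteins then repress that dimer, while the nuclear receptors REV-ERBα (Nr1d1) and REV-ERBβ (Nr1d2) repress Arntl and Clock through elements that ROR receptors activate. DBP is an output activator that binds D-box sequences, for which the repressor NFIL3 competes. In mouse tissues Dbp, Nr1d1, Nr1d2 and the Per RNAs are abundant in the day and early night, Arntl and Npas2 RNA peak near the opposite time, and Clock RNA cycles weakly. The cortical clock is a local one that the suprachiasmatic nucleus of the hypothalamus keeps in time.

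Promoter sequences were searched for the elements through which these genes are known to control each other, since the members are the factors' own targets. The cyclic AMP response element, which is not one of the loop's own elements, was searched as well. RefSeq windows on build GRCm38.p6, running from 250 bases before to 50 after a start site, matched 9 of the 10 members in 13 windows, and Per2 had no entry. Both strands were searched. The E-box was spelled CACGTG and the weaker E'-box CACGTT, which reads as AACGTG from the other strand. The D-box was spelled TTATGTAA. The core of ROR elements was spelled AGGTCA, which reads as TGACCT from the other strand, and the core of the cyclic AMP response element (CRE) was spelled TGACGT. None of these motifs contains another. Members were counted out of the 9 with a window, by a match in any of their windows. The percentages beside them are of single windows, so the counts and percentages are in unlike units. An E-box was found in 2 members (Per1 and Cry1) and in 7.15% of all 32851 windows, and an E'-box in 3 members (Cry1, Cry2 and Nr1d1) and in 4.68% of windows. A D-box was found in 1 member, Per3, where it occurred in 2 copies, and in 0.938% of windows. The ROR core was found in 4 members (Clock, Arntl, Per1 and Nr1d2) and in 16.3% of windows, and the CRE core in 1 member, Per1, and in 7.51% of windows. The sequences below are those with matches to the loop's own elements in the period and cryptochrome genes. The Per1 window with the CRE core and the ROR core of Arntl, the REV-ERB target, are shown as well. All are printed 5′ to 3′ on the gene's strand without annotated exon bases, except the Arntl stretch, which lies in an exon. Capitals mark the motif letters. The Per1 window at chr11:69098699-69098947 (plus strand) holds an E-box 166 bases before the start site and, downstream of it, a ROR core. The Per1 window at chr11:69099902-69100151 (plus strand), at another start site within the gene, holds the CRE core. The Per3 window is chr4:151044666-151044915 (minus strand), with D-boxes 205 and 158 bases before the start. The Cry1 window is chr10:85185065-85185304 (minus strand), with an E'-box 79 and an E-box 60 bases before the start. The Cry2 window is chr2:92434070-92434319 (minus strand), with an E'-box 166 bases before the start. The Arntl stretch is chr7:113207528-113207557 (plus strand), with the ROR core 31 bases after the start.
Per1, E-box window: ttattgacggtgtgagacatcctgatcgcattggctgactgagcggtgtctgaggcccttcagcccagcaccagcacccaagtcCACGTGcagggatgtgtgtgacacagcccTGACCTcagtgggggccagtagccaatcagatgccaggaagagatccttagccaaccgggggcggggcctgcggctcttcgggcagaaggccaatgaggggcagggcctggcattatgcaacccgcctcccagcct
Per1, CRE window: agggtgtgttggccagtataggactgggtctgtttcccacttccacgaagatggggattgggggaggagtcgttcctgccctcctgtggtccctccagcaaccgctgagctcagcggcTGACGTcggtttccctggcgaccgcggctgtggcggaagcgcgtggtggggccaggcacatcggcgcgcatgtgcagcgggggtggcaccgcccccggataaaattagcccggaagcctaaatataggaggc
Per3: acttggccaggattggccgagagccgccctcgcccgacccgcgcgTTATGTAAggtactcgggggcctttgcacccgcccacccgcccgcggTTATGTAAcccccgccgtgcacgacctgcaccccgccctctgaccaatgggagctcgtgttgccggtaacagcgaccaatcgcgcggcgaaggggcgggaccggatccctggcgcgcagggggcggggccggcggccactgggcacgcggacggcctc
Cry1: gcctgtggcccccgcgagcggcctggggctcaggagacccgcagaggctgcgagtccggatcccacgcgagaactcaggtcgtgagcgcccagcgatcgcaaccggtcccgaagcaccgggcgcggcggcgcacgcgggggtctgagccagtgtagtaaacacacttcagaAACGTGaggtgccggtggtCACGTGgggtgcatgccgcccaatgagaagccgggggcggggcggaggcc
Cry2: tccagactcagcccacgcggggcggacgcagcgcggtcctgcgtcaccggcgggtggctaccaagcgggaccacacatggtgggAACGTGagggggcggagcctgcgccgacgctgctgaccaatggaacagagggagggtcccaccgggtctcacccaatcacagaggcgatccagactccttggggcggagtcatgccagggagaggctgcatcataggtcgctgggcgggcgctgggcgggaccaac
Arntl: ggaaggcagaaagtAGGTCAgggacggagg
A match describes the letters in a window and not the binding of a factor, and a window without a match says nothing of sites elsewhere.

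All 10 clock genes were expressed well above the detection limit of 1 TPM (a level that corrects for transcript length and library depth) in both libraries. In the alignment-based quantification the output gene, a REV-ERB and a cryptochrome led (Dbp, Nr1d1 and Cry2), and Per3, Per2 and Cry1 were the lowest. The summed level of the 10 genes was 325.74 TPM in replicate 1 and 334.15 TPM in replicate 2. Because the tissue is a mixture, fewer cells of a type and less RNA per cell cannot be told apart.

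**Figure D1:**
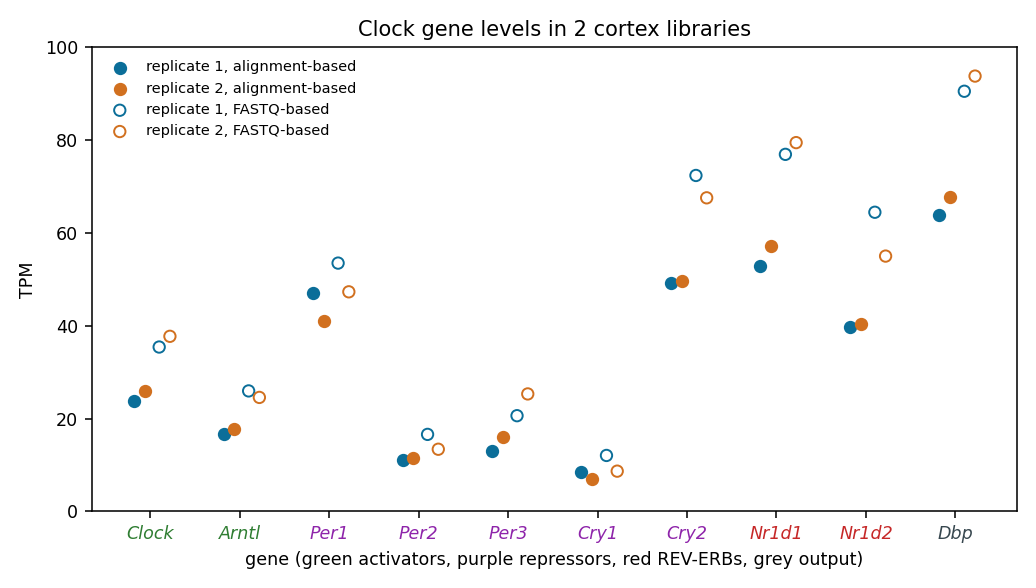
TPM of the 10 clock genes in replicate 1 (blue) and replicate 2 (orange), with filled points for the alignment-based and open points for the FASTQ-based quantification, each point being 1 library. Dbp is highest in both libraries by both quantifications, with 63.93 and 67.73 TPM in the alignment-based one, and Cry1 is lowest with 8.50 and 7.01 TPM.

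The activators were moderate in level and close in both libraries. Clock (chr5:76209868-76304792, minus strand, mm10), which encodes a subunit of the activating dimer, had 23.77 TPM in replicate 1 and 25.94 TPM in replicate 2, from 3679 and 3223 expected counts. Arntl (chr7:113207465-113314126, plus strand), which encodes its partner BMAL1, had 16.63 and 17.65 TPM, from 957 and 826 counts. Clock lay at percentile 63.9 and Arntl at percentile 52.3 of 12933 detected nuclear protein-coding genes, ranked by the mean log2(TPM + 1) of the libraries. BMAL1 RNA thus stood near the middle of the expressed genes. Clock exceeded Arntl 1.43-fold in replicate 1 and 1.47-fold in replicate 2 (log2 ratio 0.54 ± 0.03, SD, n = 2). Their paralogs gave a different picture for each partner. Npas2, which can replace CLOCK in forebrain neurons, was close to Clock, with 24.10 and 27.23 TPM. Arntl2, the BMAL2 gene, had 3.64 and 3.92 TPM, and Arntl exceeded it 4.54-fold on average. In the FASTQ-based quantification that excess was 1.94-fold in replicate 1 and 1.07-fold in replicate 2, so the size of the gap between Arntl and Arntl2 depends on how reads were assigned.

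The repressor arm spanned a wide range, with 1 leading member in each family. Among the period genes, whose products carry cryptochromes into the nucleus, Per1 (chr11:69095217-69109960, plus strand) led with 46.98 TPM in replicate 1 and 41.05 TPM in replicate 2. Per3 (chr4:151003652-151044665, minus strand) had 13.02 and 15.96 TPM, and Per2 (chr1:91415982-91459324, minus strand) had 11.04 and 11.57 TPM. Per1 therefore exceeded Per2 3.89-fold and Per3 3.05-fold on average, and it did so in both libraries. In the FASTQ-based quantification the excess of Per1 was smaller, at 3.38-fold over Per2 and 2.2-fold over Per3. Among the cryptochromes, the direct inhibitors of the dimer, Cry2 (chr2:92403646-92434043, minus strand) had 49.27 and 49.71 TPM. Cry1 (chr10:85131700-85185064, minus strand), the stronger repressor in mouse fibroblasts, had 8.50 and 7.01 TPM. Cry2 exceeded Cry1 5.80-fold in replicate 1 and 7.09-fold in replicate 2 (log2 ratio 2.68 ± 0.21, SD, n = 2), the widest gap among the clock genes of 1 family. Cry2 stood at percentile 82.9 and Per1 at 80.3 of the detected genes, whereas Per3 stood at 46.7 and Per2 at 39.5, with Cry1 below them.

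The REV-ERB genes and Dbp, direct targets of the activating dimer, were among the most abundant. Nr1d1 (chr11:98767932-98775333, minus strand) had 52.95 TPM in replicate 1 and 57.14 TPM in replicate 2, and Nr1d2 (chr14:18204054-18239127, minus strand) had 39.65 and 40.39 TPM. Dbp (chr7:45705088-45710203, plus strand) had 63.93 and 67.73 TPM, at percentile 87.6. Each of the 3 was above both activators in both libraries. Dbp exceeded Arntl 3.84-fold in each of the libraries (log2 ratio 1.94 and 1.94), and Nr1d1 exceeded Arntl 3.18-fold and 3.24-fold. Dbp also exceeded Nfil3, its competitor at D-boxes, 10.7-fold on average, with Nfil3 at 6.28 and 6.0 TPM. Exons of Nr1d1 overlap those of Thra by 263 bases and exons of Dbp overlap those of Sphk2 by 539 bases, in each case on the opposite strand. Whether the counting used strand is not stated, so reads from the shared bases cannot be assigned to either gene with certainty. Thra had 12910 counts in replicate 1 and 11312 in replicate 2, against 2771 and 2546 for Nr1d1, while Sphk2 had 768 and 727, against 2056 and 1862 for Dbp.

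Summed by arm, the repressors held 128.81 TPM in replicate 1 and 125.30 TPM in replicate 2, the REV-ERBs 92.60 and 97.53 TPM, and the activators 40.40 and 43.59 TPM. By median the repressors were lowest, at 13.02 TPM in replicate 1 and 15.96 TPM in replicate 2 (mean 14.49 ± 2.08 TPM, SD, n = 2), and the activators next, at 20.20 and 21.80 TPM. The REV-ERBs had a median of 46.30 and 48.77 TPM (mean 47.53 ± 1.74 TPM). The repressors were thus the largest arm by sum, carried by Cry2 and Per1, and the smallest by median, set by Per3.

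From high to low the order of levels was Dbp, Nr1d1, Cry2, Per1, Nr1d2, Clock, Arntl, Per3, Per2 and Cry1. No neighbours in that order overlapped between libraries, although the gaps from Nr1d1 to Nr1d2 were each 1.10-fold to 1.12-fold. In the FASTQ-based quantification Nr1d2 (64.46 and 55.01 TPM) stood above Per1 (53.50 and 47.31 TPM), and Arntl (25.95 and 24.55 TPM) overlapped Per3 (20.61 and 25.30 TPM). The order of Per1 and Nr1d2, and that of Arntl and Per3, are therefore not settled by these libraries.

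The transcripts behind these levels were mostly coding forms. Of the 44 annotated transcripts of the 10 genes, the leading one by mean share was protein coding for every gene and the same in both quantifications. In the alignment-based one it held at least 50% of the gene's TPM in both libraries for 9 genes, Clock being the exception with Clock-205 at 51.05% in replicate 1 and 47.47% in replicate 2. In the FASTQ-based one Clock-205 (39.3 and 37.3%) and Per1-201 (48.2 and 39.1%) were below 50% in both libraries. There Per1-206, a coding transcript with 0% in the alignment-based table, held 28.4% in replicate 1 and 39.5% in replicate 2, where it was level with Per1-201. The shares that follow are alignment-based. Nr1d1-201 was the most dominant, with 95.4 ± 1.28% (SD, n = 2). Cry1-201 held 86.1 ± 0.95%, Cry2-201 82.7 ± 0.57%, Arntl-201 78.3 ± 3.96%, Nr1d2-201 74.9 ± 0.72% and Dbp-201 62.7 ± 0.31%. The period genes varied most between libraries, with Per2-201 at 99.51% in replicate 1 and 80.10% in replicate 2, Per1-201 at 56.13% and 64.80%, and Per3-201 at 67.10% and 57.49%.

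Short transcripts weighed on the TPM of Per1 and Per2. Per2-202, a non-coding transcript of 231 nt, took 19.9% of the TPM of Per2 in replicate 2 from 5.31 counts, and 0.49% in replicate 1 from 0.15 counts. Over transcripts of at least 1000 nt Per2 had 10.99 TPM in replicate 1 and 9.27 TPM in replicate 2, so the near equality of its TPM above rests on a few reads of that transcript. Per1-204, of 496 nt, took 28.59% and 23.69% of the TPM of Per1 from 110.97 and 67.44 counts. Over the longer transcripts Per1 had 33.55 and 31.32 TPM, which placed it below Nr1d2 with 35.41 and 36.55 TPM. For this reason ratios between the libraries are given below in counts and not in TPM, while levels and sums over gene lists stay in TPM.

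**Figure D2:**
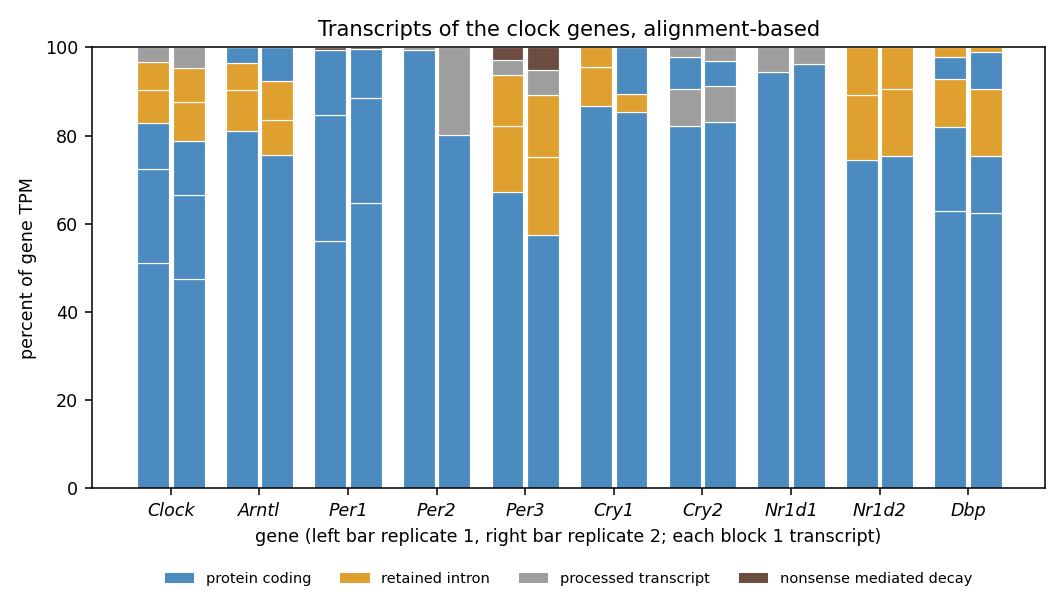
Percent of each clock gene's TPM held by each annotated transcript in the alignment-based quantification, with the left bar for replicate 1 and the right bar for replicate 2, coloured by transcript class. Blue coding transcripts make up most of every bar, and the grey block of Per2 in replicate 2 is the 231-nt transcript with 19.9% of TPM.

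Between the 2 libraries, Cry1 was higher in replicate 1, Per2 lay at the limit of the rule of size, and the other 8 clock genes lay within it. Counts were compared as the ratio of replicate 1 over replicate 2 after TMM scaling, with an exact 95% interval that covers counting error only. Cry1 had 458 counts in replicate 1 and 309 in replicate 2, a ratio of 1.32 (1.14 to 1.53). Per2 had 1311 and 934 counts, a log2 ratio of 0.32 (0.20 to 0.45), against a log2 ratio of 0.40 (0.19 to 0.61) for Cry1. These were the 2 members past the rule of size, a log2 difference of at least 0.32 at a mean of at least 1 CPM (counts scaled to library size), and both were higher in replicate 1. Of all 15673 genes compared, 5.97% were higher in replicate 1 by that rule and 10.2% lower, 16.1% in all, or 9.32% higher and 7.56% lower when scaled to the spike-ins. No member was lower by the rule. None of the 10 reached 1.5-fold, as did 1.77% of all genes higher and 3.42% lower (5.19% in all), or 2-fold, as did 0.51% higher and 0.415% lower (0.925% in all). Per2 lay just inside the threshold, and with library totals its log2 ratio was 0.285 and Cry1 was the only member called. Fbxl21 (ratio 1.219) and Bhlhe40 (ratio 1.215), of the wider clock genes, lay just outside it.

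The other period genes differed from each other in direction. Per1 had 3126 counts in replicate 1 and 2472 in replicate 2, a ratio of 1.126 (1.068 to 1.188). Per3 had 1398 and 1379 counts, a ratio of 0.903 (0.838 to 0.974), the lowest among the members. The intervals of Per1 and Per3 both exclude 1, on opposite sides, though the log2 ratio of Per3 was -0.15 with TMM, -0.08 with spike-in scaling and 0.01 over its protein-coding transcripts. Cry2 had 3598 and 3045 counts, a ratio of 1.053 (1.003 to 1.105), so within the repressor arm 4 of 5 genes were above 1 and Per3 below.

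The activators, REV-ERBs and Dbp lay close to 1. Clock had a ratio of 1.017 (0.970 to 1.066) and Arntl of 1.032 (0.939 to 1.134). Nr1d1 had 2771 counts in replicate 1 and 2546 in replicate 2, a ratio of 0.970 (0.918 to 1.023), and Nr1d2 had 3048 and 2637 counts, a ratio of 1.03 (0.977 to 1.085). Dbp had 2056 and 1862 counts, a ratio of 0.984 (0.923 to 1.048). The intervals of these 5 genes all include 1. The median log2 ratio of the 10 members was 0.04, with 7 above 0 and 3 below, against a median of 0.02 and a 5th to 95th percentile range of -0.50 to 0.35 over all genes compared. Signs of such small values turned with the scaling, Clock being at -0.01 with library totals, and Nr1d1 at 0.03 and Dbp at 0.05 with spike-ins. Per2 had a higher ratio than all but 5.94% of genes and Cry1 than all but 3.78%.

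**Figure D3:**
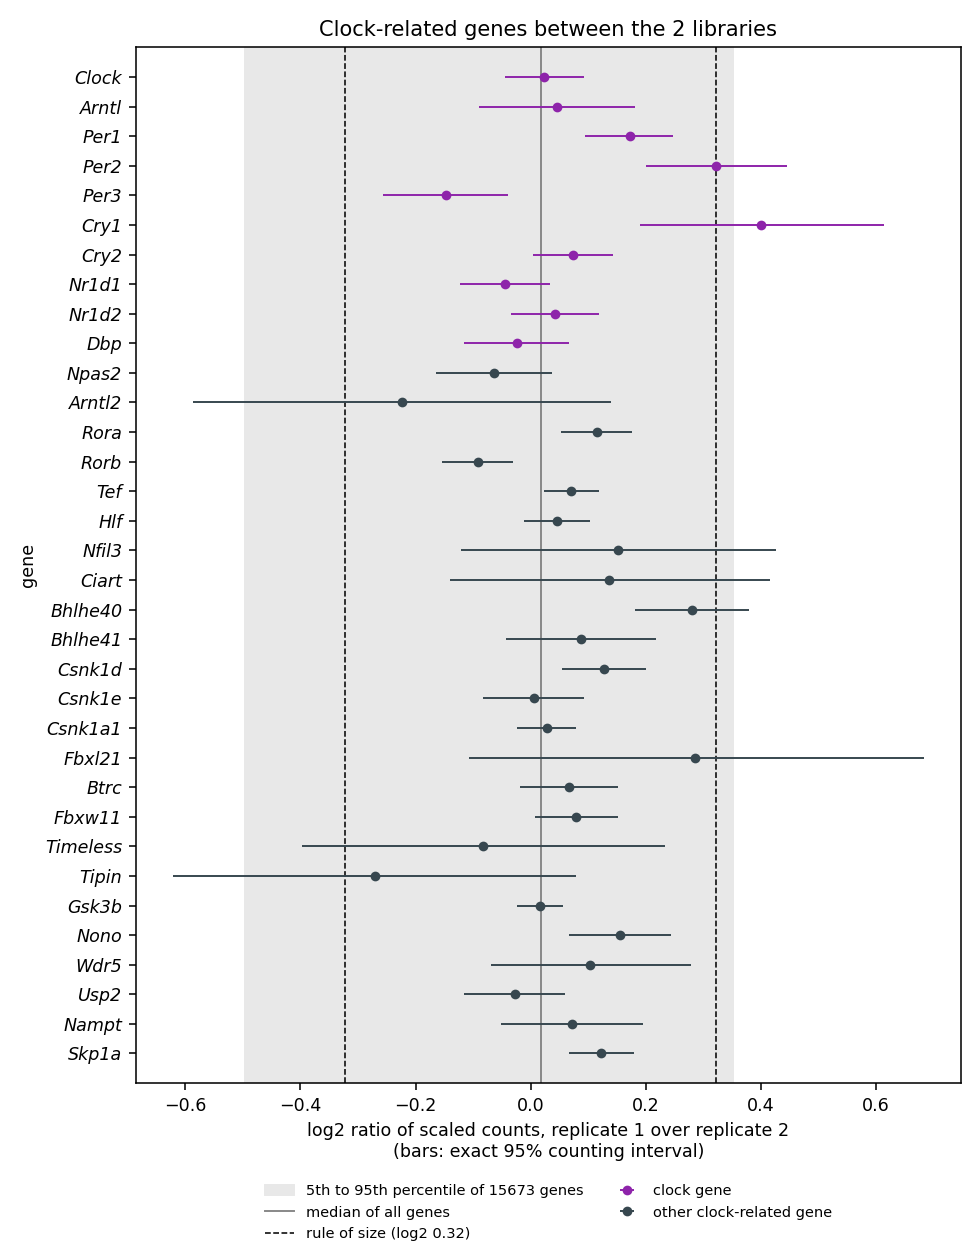
Log2 ratio of scaled counts, replicate 1 over replicate 2, for the 10 clock genes (purple) and other clock-related genes (dark grey), with exact 95% counting intervals as bars, the limits of the rule of size dashed and the 5th to 95th percentile of all 15673 genes shaded. Cry1 at 0.40 and Per2 at 0.32 are at or past the limit, and every other point lies within it.

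Of 26 further genes known to act in or beside the loop, 25 had enough counts to compare, and none passed the rule of size in either direction (median log2 ratio 0.07, 19 above 0). Over all genes compared 16.1% passed it. Among the ROR receptors that oppose the REV-ERBs at Arntl, Rora had 35.73 and 35.49 TPM and Rorb 25.32 and 28.41 TPM, so both stood above Arntl in both libraries. Among the D-box factors related to DBP, Tef had 107.11 and 112.23 TPM, 1.67-fold above Dbp on average, and Hlf had 51.25 and 52.48 TPM. Their ratios of scaled counts were 1.051 (1.016 to 1.086) for Tef and 1.033 (0.993 to 1.074) for Hlf.

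The E-box repressors Bhlhe40 (DEC1) and Bhlhe41 (DEC2) had 34.10 and 13.35 TPM in replicate 1 and 30.77 and 11.41 TPM in replicate 2, and CHRONO (Ciart) had 9.27 and 8.98 TPM. Timeless (3.62 and 3.30 TPM) and Tipin (7.30 and 9.48 TPM), partners at the replication fork, were low in the alignment-based quantification. In the FASTQ-based one Timeless had 15.82 and 13.87 TPM and Tipin 7.66 and 10.38 TPM. Tipin had the lowest ratio of the list, with a log2 value of -0.27 (-0.62 to 0.08). The kinases that phosphorylate PER were abundant, with Csnk1d at 50.62 and 49.41 TPM, Csnk1e at 58.11 and 64.28 TPM and Csnk1a1 at 110.33 and 117.04 TPM. Gsk3b, another clock kinase, had 77.14 and 79.00 TPM.

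Of the ubiquitin ligase genes that direct CRY and PER for degradation, Fbxl21, whose product binds cryptochromes, had 3.18 TPM in replicate 1 and 2.92 TPM in replicate 2. Btrc (46.01 and 42.99 TPM) and Fbxw11 (55.58 and 55.52 TPM) target PER, and Skp1a, the adaptor of these complexes, had 209.57 and 198.01 TPM. The deubiquitinase Usp2 had 46.42 and 48.88 TPM. The PER-associated cofactors Nono (51.36 and 50.20 TPM) and Wdr5 (11.27 and 11.71 TPM), and Nampt (13.39 and 13.95 TPM), a clock-controlled enzyme of NAD synthesis, completed the list. The degradation machinery as a whole differed little, with 9 of 10 kinase and ligase genes between a log2 ratio of 0 and 0.29 and Usp2 at -0.03.

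For the question of whether the libraries point to the same clock phase, each day-peaking gene was set against Arntl, whose RNA peaks near the opposite time. The day genes do not peak at the same hour, so a difference in phase need not move all of them in 1 direction, and all of these values share the Arntl counts (957 in replicate 1 and 826 in replicate 2). Over Arntl, the log2 difference between replicate 1 and replicate 2 was -0.07 (-0.23 to 0.10) for Dbp, -0.09 (-0.25 to 0.07) for Nr1d1 and 0.00 (-0.16 to 0.15) for Nr1d2. The same quantity was 0.13 (-0.03 to 0.28) for Per1, 0.28 (0.09 to 0.46) for Per2 and -0.19 (-0.37 to -0.02) for Per3. The 6 day genes thus did not share a direction. Their median was -0.04, 2 were above 0 and 4 below, and 4 of the 6 intervals include 0, while those of Per2 and Per3 exclude it in opposite directions. Over protein-coding transcripts alone the log2 ratio was 0.33 for Per2, 0.01 for Per3 and 0.04 for Arntl, so the lower value of Per3 was not seen in its coding RNA.

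Day-peaking genes outside the members gave values near 0 over Arntl as well, at 0.03 for Tef, 0.00 for Hlf, 0.09 for Ciart, 0.04 for Bhlhe41 and -0.07 for Usp2. On the night side Npas2 was at -0.11 (-0.28 to 0.06) and Nfil3 at 0.11 (-0.20 to 0.41). Cry1, whose RNA peaks later than that of the Per genes, was at 0.36 (0.10 to 0.61). The median of the 6 day genes was -0.126 with FASTQ-based counts and -0.002 over protein-coding transcripts, while library scaling cancels in this quantity. These values show no common shift of day genes against Arntl but settle neither equal nor different phase, and the clock time itself cannot be read from 2 libraries without a time series.

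The lower count ratio of Per3 lay in its non-coding transcripts, those with retained introns among them. Retained-intron transcripts are annotated for 6 members, and 5 had at least 50 counts in them. In Per3 they had 259 counts (18.5% of the gene) in replicate 1 and 316 (22.9%) in replicate 2, a scaled ratio of 0.730 (0.617 to 0.863). The nonsense-mediated decay transcript Per3-203 had 32.98 and 59.93 counts, a ratio of 0.490 (0.310 to 0.761), and the processed transcript Per3-204 had 33.17 and 56.93 counts, a ratio of 0.516 (0.325 to 0.805). In Dbp, whose whole-gene ratio was close to 1, retained-intron transcripts had 259 counts (12.6%) in replicate 1 and 300 (16.1%) in replicate 2, a ratio of 0.769 (0.649 to 0.911). Over protein-coding transcripts alone the log2 ratio was 0.01 for Per3, against -0.15 for the whole gene, and 0.04 for Dbp, against -0.02. Clock had a retained-intron ratio of 0.823 (0.659 to 1.03), Arntl of 1.06 (0.822 to 1.37) and Nr1d2 of 1.05 (0.872 to 1.27). Over the 3528 genes with as many counts in both classes, the median log2 ratio was -0.21 for retained-intron and 0.05 for coding transcripts, and in 76.0% of them the retained-intron class had the lower ratio. Lower retained-intron RNA in replicate 1 was therefore the rule across genes. Per3 and Dbp shared it, as did Clock, though its retained-intron interval includes 1, whereas Arntl and Nr1d2 did not.

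**Figure D4:**
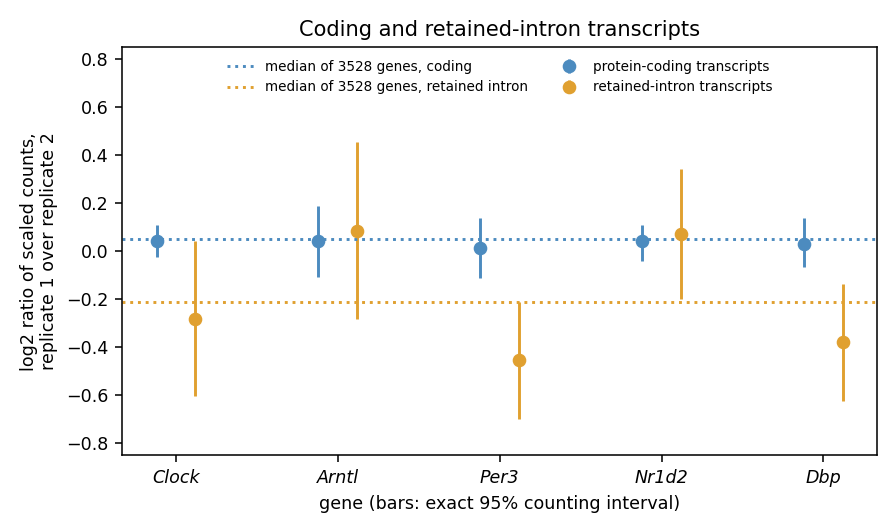
Log2 ratio of scaled counts, replicate 1 over replicate 2, of protein-coding (blue) and retained-intron (orange) transcripts of the 5 clock genes with at least 50 counts in retained-intron transcripts, with exact 95% counting intervals and dotted medians over 3528 genes. The coding points of all 5 genes lie between 0 and 0.05, while the retained-intron points of Per3 and Dbp lie near -0.45 and -0.38.

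Several other gene programmes had larger median differences between the libraries than the clock genes. By the rule of size 5.97% of all genes compared were higher in replicate 1 and 10.2% lower. Of 16 immediate early genes, which neurons transcribe on activity and through whose pathways Per1 and Per2 can be induced, 13 were higher in replicate 1 and none lower (median log2 ratio 0.79), and their summed level was 493.2 TPM in replicate 1 and 313.4 TPM in replicate 2. Arc had 5257 and 1828 counts and Egr1 6478 and 3382. Egr3, with 4176 and 3456, lay within the rule of size after scaling (ratio 1.076). Of 12 glucocorticoid-response genes, a group to which Per1 also belongs by its known regulation, 6 were higher and none lower (median 0.29), with summed levels of 306.8 and 268.4 TPM. Tsc22d3 had 2219 and 1285 counts, whereas Klf9 had 8092 and 6525 and Sgk1 1219 and 1136, both within the rule of size after scaling. Of 8 heat and cold response genes 4 were higher and none lower (median 0.32), with summed levels of 1803 and 1555 TPM. The heat shock genes Hspa8 (37622 and 26069 counts), Hsp90aa1 (22304 and 17420) and Hsph1 (8811 and 6446) led the list in TPM. Of these, Hspa8 passed the rule of size (ratio 1.286), whereas Hsp90aa1 (1.14) and Hsph1 (1.218) lay within it after scaling. The cold-response genes Rbm3, with a ratio of 0.807 (0.741 to 0.880), and Cirbp, with 0.805 (0.724 to 0.896), lay on the other side of 1 and were named after their values were seen. The part of these programmes in the higher Per1, Per2 and Cry1 counts of replicate 1 was not tested.

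**Figure D5:**
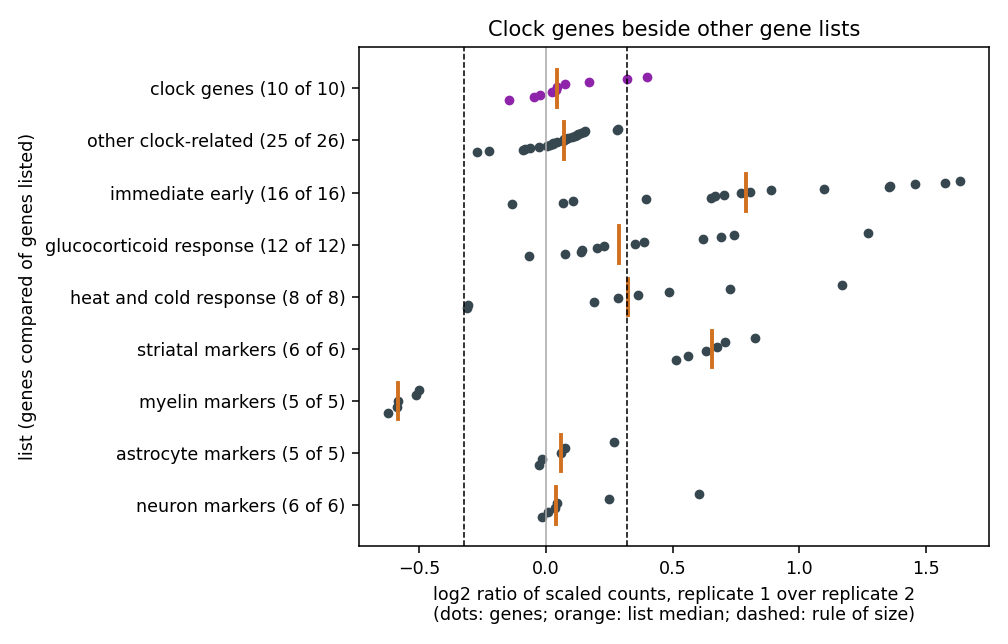
Log2 ratio of scaled counts, replicate 1 over replicate 2, for each compared gene (dots) of 9 lists, with list medians in orange and the limits of the rule of size dashed. The clock genes and other clock-related genes centre near 0 (medians 0.04 and 0.07), the immediate early genes at 0.79, the striatal markers at 0.65 and the myelin markers at -0.59.

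The defining markers of cortical cell types were present in both libraries, and markers of other regions differed between them. The shares of all genes compared that passed the rule of size were 5.97% higher in replicate 1 and 10.2% lower. Neuronal markers summed to 2563 TPM in replicate 1 and 2632 TPM in replicate 2 (1 of 6 higher, none lower), led by Snap25, Slc17a7 and Syt1, and astrocyte markers, led by Slc1a3, Gja1 and Gfap, to 353.5 and 360.5 TPM (none of 5 past the rule). Of the microglial markers, led by Csf1r, P2ry12 and C1qa, 1 of 5 was higher in replicate 1 and none lower, and so was 1 of 4 endothelial markers, led by Ly6c1, Cldn5 and Flt1. All 5 myelin markers, among them Mbp and Mobp, were lower in replicate 1 (1328 and 2097 TPM in sum), and all 6 striatal markers, among them Ppp1r1b and Rgs9, were higher (337.0 and 238.9 TPM). Of 11 markers of the suprachiasmatic nucleus and hypothalamus 5 could be compared, with 3 higher in replicate 1 and 1 lower (92.74 and 35.06 TPM in sum over the 11). Pmch had 482 counts in replicate 1 and 4 in replicate 2, Hcrt 120 and 0, which allows up to 3 counts, and Grp, the marker that was lower, 108 and 131. The other markers higher in replicate 1 were Avp, with 88 and 3 counts, and Six3, with 186 and 59. Six6 was at 0 in both libraries and Nms had 1 count and 0, while Vip, which cortical interneurons also express, had 752 and 606 counts. Of the choroid plexus markers, Ttr had 2172 counts in replicate 1 and 91 in replicate 2, Kl 146 and 88, and Kcnj13 43 and 26. The part of these markers' cells in the clock gene ratios was not tested.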

How the data were processed

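The authors deposited 2 quantifications of each library on mm10 with GENCODE M21, per the accompanying file descriptions. No source used here names the aligner or the quantifiers. The deposited alignment-based gene tables give an expected count and a TPM per gene, per the file headers, and the deposited transcript tables give the percent of gene TPM in each transcript. A FASTQ-based transcript table gives estimated counts and TPM, which were summed per gene here. All 55536 annotated gene identifiers matched M21. Entries that carry only a number took 6.39e-06% and 1.81e-05% of the expected counts in replicates 1 and 2 and were left out.

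Expected counts totalled 31301126 in replicate 1 and 27182336 in replicate 2. After rounding, edgeR 4.0.16 (with limma 3.58.1, under R 4.3.3) set the TMM factors, 0.987 for replicate 1 and 1.01 for replicate 2. The common biological coefficient of variation was 9.12%. The libraries were not duplicates, since a chi-square of their counts was 7.84 per degree of freedom over 20441 genes. Ratios carry exact 95% intervals from the binomial distribution, which cover counting error only and not the spread between replicates. Reads without molecular identifiers are not independent molecules, so the intervals can be too narrow even for counting error. Genes with a mean of at least 1 CPM were compared, and the rule of size for a difference was a log2 ratio of at least 0.32 in either direction. With 1 group no test between conditions exists, and an exact sign-flip test of 2 libraries cannot go below p = 0.5. The interval calculation was tested on simulated data.

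The members, the gene lists and the comparisons were chosen with earlier results of these data known. Named genes are all members, the other clock-related genes, and from each context list the 3 highest in mean TPM plus those at 0 counts, some of which are not reported here. Thra and Sphk2 were added because their exons overlap those of members, and Rbm3, Cirbp, Avp and Six3 after their values were seen. No genes were matched to the members by pattern, since 2 libraries give 1 ratio per gene. Alternatives were DESeq2 1.42.0 size factors, library totals, spike-in scaling, the FASTQ-based tables, TPM rescaled over nuclear protein-coding genes, other folds and filters, a log2(CPM + 1) scale, and each library left out. Restriction to transcripts of at least 1000 nt, or to protein-coding transcripts, was added after seeing the data. Scripts ran in Python 3.11.15 with scipy 1.17.1, numpy 2.4.6 and pandas 2.3.3, and plots were drawn with matplotlib 3.10.9. Promoter windows came from RefSeq (GRCm38.p6).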

Additional observations from a re-analysis of the deposited data

How the results depend on the processing

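Levels depend on the quantification more than on the library. In the FASTQ-based quantification the median TPM was 30.91 for the activators, 22.96 for the repressors, 68.97 for the REV-ERBs and 92.17 for Dbp. With TPM rescaled over nuclear protein-coding genes it was 45.96, 31.69, 104.1 and 144.1 for the same arms. That rescaling multiplies every gene of a library by the same factor, so it is a change of unit. As sums in place of medians the arms held 41.995 (activators), 127.06 (repressors) and 95.065 TPM (REV-ERBs), and over transcripts of at least 1000 nt the REV-ERB median was 44.25 TPM. With either library left out, the medians ranged over 20.2 to 21.8 TPM for the activators, 13.02 to 15.96 for the repressors, 46.3 to 48.77 for the REV-ERBs and 63.93 to 67.73 for Dbp. The count of 2 members higher in replicate 1 became 1 with library totals, where Per2 had a log2 ratio of 0.285, and 0 at 1.5-fold and at 2-fold. Of the 10 leading transcript shares, 8 moved by more than 1 SD in the FASTQ-based quantification. Of 50 ratios of single members under other scalings and quantifications, 49 kept their side of the limit set by the rule of size. Small values changed sign for Clock (-0.01) with library totals, for Nr1d1 (0.03) and Dbp (0.05) with spike-ins, and for Per3 (0.01) and Dbp (0.04) over protein-coding transcripts. The median log2 ratio of all genes was 0.02 with TMM, -0.02 with library totals, 0.03 with DESeq2 size factors and 0.09 with spike-ins. A ratio between 2 libraries has no value when a library is left out. No paired analysis was possible because the samples form 1 group. Depth limits Cry1 most, with 458 and 309 counts. The printed intervals hold the ratios compatible with counting error and set no limit of detection.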
